A study of Mus musculus with 6 samples.

Results

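Cycling cells of the small intestinal epithelium were taken from single-cell RNA sequencing of 6 mouse libraries, as the barcodes that carried RNA of an epithelial gene and of several cell division genes at once. A barcode (the tag of 1 droplet) was kept where it held at least 1000 unique molecular identifiers (UMIs, each standing for 1 counted RNA molecule), at most 30% of them from mitochondrial genes, at least 1 UMI of Epcam, an epithelial adhesion gene, and none of Ptprc, Cd3e or Hbb-bs, genes of leukocytes, T cells and red blood cells. A kept barcode was called cycling where at least 3 of 8 rule genes were detected, namely Mki67, Top2a, Ube2c, Birc5, Cdk1, Ccnb1, Ccna2 and Stmn1. The rule found 93 cycling barcodes, which is 0.651% of the 14291 barcodes that passed the gate and 0.153% of all 60706 barcodes. The 3 control libraries held 13, 12 and 7 of them, and the 3 libraries labelled IE-HuR-/- held 19, 24 and 18.

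The libraries came from the small intestinal mucosa of C57BL/6 mice aged 6 to 8 weeks, 1 library per animal and 3 animals per label. In IE-HuR-/- mice, HuR fl/fl alleles are recombined by Cre under the villin promoter, which is active in intestinal epithelial cells and not in the leukocytes or stroma of the same tissue. The controls were HuR fl/fl littermates without Cre, which the labels call wild-type. HuR is an RNA-binding protein encoded by Elavl1, and the study asked how its loss changes gene expression in the cell types of the intestinal epithelium. The labels give normal feeding for all animals, whereas the methods give 24 h without food before experiments. The libraries held 8613 to 15041 barcodes and 59518012 to 91818560 UMIs each. The cycling barcodes of a library summed to between 173369 UMIs in control replicate 2 and 499616 in IE-HuR-/- replicate 1, and in control replicate 3 a single barcode gave 49.1% of that sum.

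The intestinal epithelium is renewed from crypts, where stem cells divide and their daughters, the transit-amplifying progenitors, pass through several further divisions before they leave the cycle and mature into absorptive enterocytes or secretory cells. Genes for DNA replication are transcribed as cells enter S phase, mostly through E2F factors. Genes for the mitotic spindle, kinetochores and mitotic cyclins follow later, under the DREAM and MuvB complexes that bind the cell cycle genes homology region, or CHR, in their promoters.

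Promoter windows from 250 bases before to 50 after the transcription start were read on mm10 (RefSeq, GRCm38.p6), and the letters TTTGAA of the CHR and 4 E2F-type words (TTTCGCGC, TTTGGCGC, TTTCCCGC and TTTGCCGC, of which the first and the second can overlap on opposite strands) were searched on both strands. TTTGAA occurred in the windows of 5466 of 27025 genes (20.2%) and an E2F-type word in 704 (2.6%). Of the genes in the list of spindle motors and cytokinesis factors, 21 of the 28 with a window (75%) held TTTGAA and 1 held an E2F-type word. TTTGAA was in 9 of the 19 kinetochore genes with a window (47.4%) and in 7 of the 17 mitotic kinase genes (41.2%). Of the 6 rule genes with a window, Mki67, Top2a, Ube2c and Cdk1 held TTTGAA, and Birc5 and Ccnb1 held neither element. Of the genes of DNA replication, 7 of 38 held TTTGAA (18.4%) and 18 held an E2F-type word (47.4%). The windows of 6 genes are shown because they carry one element, the other or both, with every match in capitals (TTTGAA on the opposite strand reads TTCAAA). They are those of Ube2c, the ubiquitin-conjugating enzyme of the anaphase-promoting complex (chr2:164769679-164769978, plus strand), Top2a, the topoisomerase that disentangles sister chromatids (chr11:99024140-99024439, minus strand), Cdc20, an activator of the anaphase-promoting complex (chr4:118437294-118437593, minus strand), Cdk1, the kinase of mitotic entry (chr10:69352863-69353162, minus strand), and Mcm5 and Mcm6, subunits of the replicative helicase (chr8:75109259-75109558, plus strand, and chr1:128359656-128359955, minus strand).
Ube2c: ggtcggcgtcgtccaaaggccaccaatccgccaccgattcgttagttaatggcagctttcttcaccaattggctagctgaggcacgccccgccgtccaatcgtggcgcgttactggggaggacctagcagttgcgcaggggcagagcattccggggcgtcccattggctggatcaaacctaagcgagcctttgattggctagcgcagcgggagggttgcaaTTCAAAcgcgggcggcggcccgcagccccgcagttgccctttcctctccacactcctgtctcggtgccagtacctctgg
Top2a: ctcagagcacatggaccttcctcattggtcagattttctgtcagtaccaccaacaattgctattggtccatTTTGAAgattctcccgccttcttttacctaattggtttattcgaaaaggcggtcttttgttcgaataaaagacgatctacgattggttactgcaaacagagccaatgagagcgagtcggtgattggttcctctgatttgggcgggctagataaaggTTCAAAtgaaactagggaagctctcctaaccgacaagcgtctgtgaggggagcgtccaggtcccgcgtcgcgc
Cdc20: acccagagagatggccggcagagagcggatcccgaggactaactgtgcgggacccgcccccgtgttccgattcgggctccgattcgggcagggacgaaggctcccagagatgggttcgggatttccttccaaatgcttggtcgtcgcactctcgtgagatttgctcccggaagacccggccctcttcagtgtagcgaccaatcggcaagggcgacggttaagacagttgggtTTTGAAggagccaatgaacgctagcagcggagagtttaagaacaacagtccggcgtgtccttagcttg
Cdk1: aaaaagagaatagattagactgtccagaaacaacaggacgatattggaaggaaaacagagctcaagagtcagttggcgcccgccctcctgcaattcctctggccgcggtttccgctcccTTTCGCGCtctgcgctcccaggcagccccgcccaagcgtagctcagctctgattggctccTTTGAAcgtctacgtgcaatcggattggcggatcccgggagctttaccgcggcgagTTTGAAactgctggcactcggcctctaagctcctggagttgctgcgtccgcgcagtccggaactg
Mcm5: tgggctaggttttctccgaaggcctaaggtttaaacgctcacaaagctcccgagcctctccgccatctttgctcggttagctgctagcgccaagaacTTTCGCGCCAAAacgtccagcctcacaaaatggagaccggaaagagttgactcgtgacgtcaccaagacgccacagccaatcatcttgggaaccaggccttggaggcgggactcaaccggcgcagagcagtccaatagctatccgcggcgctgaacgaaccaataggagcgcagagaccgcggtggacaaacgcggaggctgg
Mcm6: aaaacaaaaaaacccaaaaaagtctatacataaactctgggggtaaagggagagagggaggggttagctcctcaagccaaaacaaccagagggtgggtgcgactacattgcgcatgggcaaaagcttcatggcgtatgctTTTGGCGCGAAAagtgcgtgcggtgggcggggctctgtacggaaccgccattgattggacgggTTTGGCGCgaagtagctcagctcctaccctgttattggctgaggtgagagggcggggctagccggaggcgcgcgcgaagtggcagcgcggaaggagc
In Ube2c the match lay 29 bases before the start. In Top2a it occurred 179 and 23 bases before the start, and in Cdc20 18 bases before. The Cdk1 window held both, an E2F-type word 131 bases before the start and TTTGAA at 71 and 15. Mcm5 and Mcm6 held only E2F-type words. A match describes letters and was not tested as a binding site, and Ccna2 and Stmn1 had no window in the table.

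The barcodes were chosen by the detection of the rule genes, so the values of these genes are given as a description. Birc5, which encodes the survivin subunit of the chromosomal passenger complex, was detected in 80 of the 93 barcodes, Stmn1, a microtubule destabiliser, in 77, Ube2c in 72, Top2a in 67 and Mki67, the gene of the Ki-67 antigen, in 51. Cdk1 and Ccna2 were detected in 50 barcodes each and Ccnb1 in 44. All 8 genes were detected in 13 barcodes, 56 had at least 5 of them, and 25 had exactly 3. Summed over the 93 barcodes, Stmn1 stood at 297 CPM (UMIs of the gene per 1000000 UMIs), Ube2c at 284 CPM, Top2a at 239 CPM and Mki67 at 158 CPM. For comparison, each cycling barcode was matched to a gated barcode of its own library with at most 1 rule gene and the nearest UMI total. In these 93 matched barcodes Ube2c and Top2a had no UMI, Mki67 had 1 and Stmn1 had 5. Just inside the threshold, the 25 barcodes with 3 rule genes had a median of 3670 UMIs and 355 CPM of Hmgb2, a chromatin protein. Just outside it, 140 gated barcodes with 2 rule genes had a median of 22840 UMIs and 48.5 CPM of Hmgb2. Hmgb2 does not mark division by itself. In 1858 barcodes with Ptprc and Cd3e UMIs and no Epcam it stood at 522 CPM, while Top2a was detected in 201 of them.

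Epcam alone did not separate epithelial cells from leukocytes in these libraries, since 72.0% of 6637 barcodes with Ptprc and Cd3e UMIs (T cell barcodes) also held Epcam. Whether the 93 barcodes were epithelial was therefore read from further genes, chosen after their values were seen. Krt19, a keratin of simple epithelia, stood at 2539 CPM in the 45 cycling barcodes of at least 10000 UMIs and at 1791 CPM in the 48 shallower ones, against 58.6 CPM in those 6637 T cell barcodes. Krt8 gave 4351, 4068 and 819 CPM in the same order, and Lgals4, an intestinal galectin, 3477, 2978 and 570 CPM. In reverse, Cd3d, a T cell receptor subunit, was at 0 CPM in the deeper and 4.87 CPM in the shallower barcodes against 776 CPM in T cell barcodes, and Rac2, a leukocyte GTPase, at 2.41, 0 and 457 CPM. Other epithelial genes separated the shallower barcodes less, with Cldn7, a claudin, at 2011, 774 and 637 CPM and Epcam itself at 2361, 949 and 748 CPM. For the keratins, Lgals4, Cd3d and Rac2, both depth classes stood apart from the T cell barcodes.

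A few single barcodes went against the label. One barcode of IE-HuR-/- replicate 1 with 1 Epcam UMI and all 8 rule genes drew 34.3% of its 16161 UMIs from the B and plasma cell list, and one of IE-HuR-/- replicate 3 drew 2.05% of 25554 UMIs from the fibroblast and endothelial list. T and NK genes made up at most 0.329% of any of the 93, myeloid genes at most 0.11% and erythroid genes at most 0.0985%. Secretory lineages were also met. Goblet genes reached at least 1% of UMIs in 3 barcodes, all in IE-HuR-/- replicate 1, with 19.1% in the highest. Paneth genes, which encode defensins and lysozyme, did so in 2 barcodes, at 7.73% in one of control replicate 2. Enteroendocrine genes did so in 1 barcode of control replicate 1, at 2.64%. Enterocyte genes gave 16.2% of 35393 UMIs in a barcode of IE-HuR-/- replicate 1 with 3 UMIs of rule genes. In IE-HuR-/- replicate 3 they gave 6261 of 44858 and 11522 of 86205 UMIs in barcodes with 3 rule genes. In IE-HuR-/- replicate 2 the highest share was 13.7%, with 4 rule genes. Control barcodes reached 6.39% in replicate 1 with 3 rule genes and 7.23% in replicate 3 with 4.

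Against the depth-matched barcodes of the same libraries, the cycling barcodes carried more RNA of cell division, ribosomes and the stem cell program, and less of mature enterocytes. Across 14804 genes, 954 (6.44%) were higher and 239 (1.61%) lower by more than 1 on the log2 scale, with 5 CPM added to both sides, in all 6 libraries. These counts come from the contrast that the rule used and describe the cells without a test. In 3 lists of mitosis, for kinetochores, spindle and mitotic kinases with their cyclins, 54 of 74 genes were among the higher ones and none among the lower ones. Tuba1b, an alpha-tubulin, was at 342 CPM in the cycling and 9.66 CPM in the matched barcodes. Cdc20 was at 154 CPM and Ccnb2, a mitotic cyclin, at 138 CPM, and neither had a UMI in the matched barcodes. Cenpa, the centromeric histone, was at 122 and 1.07 CPM, and Cenpf, a kinetochore protein, at 114 and 0.537 CPM.

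Chromatin genes were also higher. Hmgb2 stood at 1288, 2053 and 1851 CPM in the cycling barcodes of the control libraries and at 879, 1455 and 662 CPM in those labelled IE-HuR-/-. Its matched barcodes ranged from 5.75 to 31.0 CPM over the 6 libraries, so that the 2 kinds of barcode did not overlap. Within the list of cohesin, condensin and mitotic chromatin, 19 of 22 genes were higher in all 6 libraries. DNA replication gave 16 of 47 genes, among them Mcm7, a helicase subunit, at 119 against 2.15 CPM, while Pcna, the polymerase clamp, was at 118 against 48.8 CPM. Nucleotide supply gave 11 of 14, led by Impdh2, the rate-limiting enzyme of guanine nucleotide synthesis, at 153 against 0.537 CPM. Pclaf, a partner of PCNA, was at 184 against 1.61 CPM.

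Ribosomal protein genes took 17.2% of all UMIs of the cycling barcodes and 1.5% of those of the matched barcodes, and 79 of 82 were higher in all 6 libraries. The share in the control libraries was 18.7%, 16.9% and 19.2%, and in the libraries labelled IE-HuR-/- 16.8%, 19.8% and 13.9%. The matched barcodes ranged from 1.1% to 2.52%. In the list of ribosome biogenesis, 19 of 24 genes were higher, with Npm1, which encodes the nucleolar protein nucleophosmin, at 699 against 34.9 CPM and Ncl, nucleolin, at 541 against 40.8 CPM. Ptma, prothymosin alpha, was at 2557 against 56.9 CPM, and Ccnd1, the cyclin of G1 phase, at 207 against 1.61 CPM. T cell barcodes without Epcam also held Ptma, at 1328 CPM.

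Stem cell genes were present in part of the cycling barcodes. Of 20 listed genes, 6 were higher in all 6 libraries. Olfm4, a secreted protein of crypt base cells, summed to 871 CPM and was detected in 30 of 93 cycling barcodes, in none of the 93 matched barcodes and in 5 of 1858 T cell barcodes without Epcam, whose median depth was 4214 UMIs against 9727. By library it stood at 1807, 1286 and 0 CPM in the controls and at 422, 1334 and 650 CPM under IE-HuR-/-. Clca3b was at 704, 421 and 243 CPM in the controls and at 114, 220 and 151 CPM under IE-HuR-/-. It had no UMI in 5 of the 6 libraries' matched barcodes. Lgr5, the receptor that defines crypt base stem cells, was detected in 11 cycling barcodes (15.6 CPM), Ascl2, a stem cell transcription factor, in 6 (8.05 CPM) and Smoc2 in 29 (38.6 CPM). Dmbt1, a mucosal scavenger protein, had a median log2 ratio of 5.86, at 967 against 21.5 CPM.

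Enterocyte genes were lower in the cycling barcodes. Of 24 listed genes, 13 were lower in all 6 libraries and none was higher. Fabp2, the intestinal fatty acid-binding protein, stood at 2370 CPM in the cycling and 22033 CPM in the matched barcodes, Apoa1, an apolipoprotein of absorptive cells, at 3308 and 15212 CPM, and Plb1, a brush border phospholipase, at 14.5 and 341 CPM. Enpp7, the intestinal alkaline sphingomyelinase, and Cubn, a receptor of vitamin B12 uptake, were at 30.6 against 393 CPM and at 8.59 against 175 CPM. Mitochondrial RNA was 83021 CPM in the cycling and 124183 CPM in the matched barcodes.

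**Figure D1:**
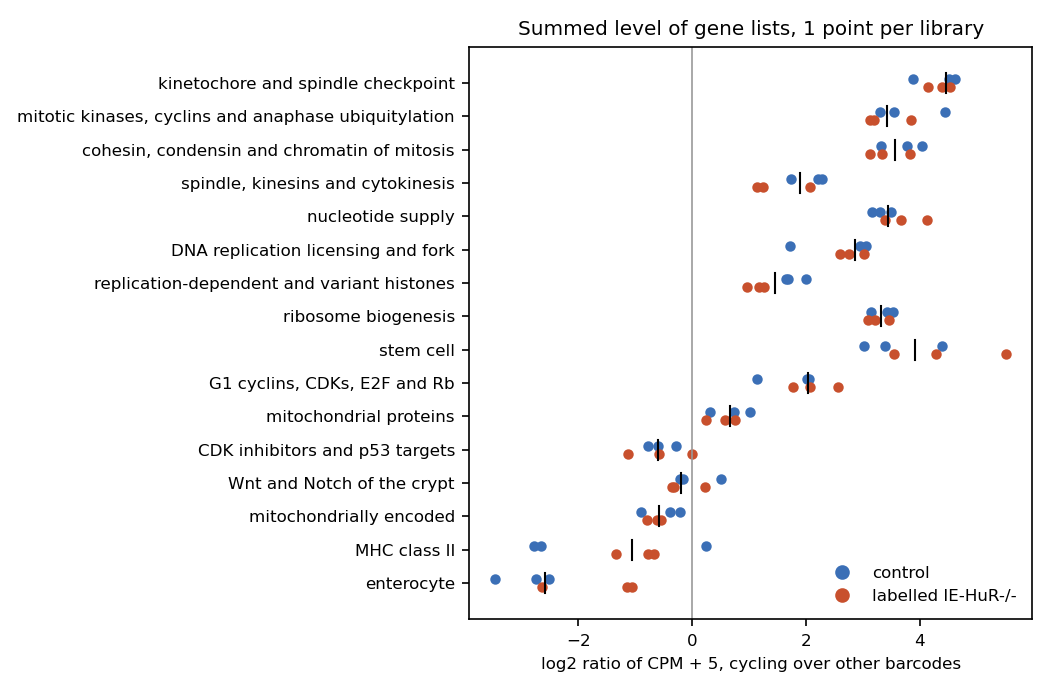
Summed level of 16 gene lists in cycling barcodes against depth-matched other gated barcodes, as the log2 ratio of CPM with 5 added, 1 point per library and a black bar at the median. Kinetochore genes lie near 4.46 and enterocyte genes near -2.58. These ratios describe the contrast that chose the cells.

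The 93 barcodes differed from each other in depth and in position within the cycle. They ranged from 1015 to 91083 UMIs with a median of 9727. The 48 below 10000 UMIs had a median mitochondrial share of 1.06%, a median of 2 Epcam UMIs, and 6584 CPM of spindle genes. The 45 deeper ones had 7.31%, 68 UMIs and 2745 CPM. Olfm4 was at 321 CPM in the shallower and 939 CPM in the deeper class. The sum of the 3 mitosis lists ran from 529 to 24439 CPM per barcode with a median of 7454, and that of replication and nucleotide supply from 0 to 10957 CPM with a median of 1924. The mitosis sum exceeded the other in 74 barcodes, 18 had more replication RNA, and in 1 barcode of control replicate 3 both sums were 8056 CPM. Replication led in barcodes of every library except control replicate 3, and mitosis led in 9 of 13, 9 of 12 and 6 of 7 control barcodes and in 16 of 19, 21 of 24 and 13 of 18 barcodes labelled IE-HuR-/-.

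**Figure D2:**
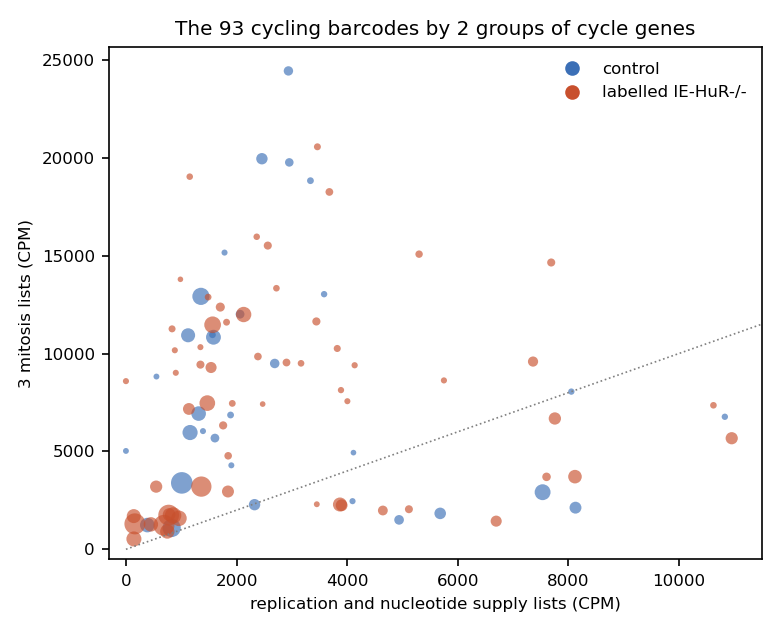
Each point is 1 of the 93 cycling barcodes, placed by its CPM in the replication and nucleotide supply lists and in the 3 mitosis lists, with area rising with UMIs and a dotted line where the sums are equal. Most points (74) lie above the line, and both labels are spread over both sides.

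Cycling barcodes were a larger share of gated barcodes in the libraries labelled IE-HuR-/-. The share was 0.517%, 0.377% and 0.412% in the controls and 0.907%, 0.993% and 0.754% under IE-HuR-/-, with no overlap. The exact 95% binomial intervals, which cover counting error only, ran from 0.276% to 0.883% in control replicate 1 and from 0.447% to 1.19% in IE-HuR-/- replicate 3. The means were 0.436% ± 0.0727 and 0.885% ± 0.121 (SD, n = 3), a 2.03-fold difference, with p = 0.1 in a two-sided exact permutation test over libraries. With 3 libraries against 3 no smaller p can be reached, and p values here measure the spread between these animals' libraries. Since detection rises with depth, each barcode of at least 3000 UMIs was also thinned to 3000. The share was then 0.43%, 0.369% and 0.368% against 0.636%, 0.912% and 0.503%, again without overlap (1.76-fold, exact permutation p = 0.1, unchanged by Benjamini-Hochberg adjustment over both shares).

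The depth of the barcodes moved with this result. Among gated barcodes of fewer than 10000 UMIs the share was 0.237%, 0.306% and 0.307% against 0.543%, 1.08% and 0.648%. Among those of at least 10000 UMIs the values were 1.09%, 0.559% and 0.555% against 1.49%, 0.833% and 0.948%, and the labels overlapped (1.49-fold, exact permutation p = 0.3). Thinned to 5000 UMIs they overlapped as well, at 0.531%, 0.303% and 0.539% against 0.571%, 0.874% and 0.528%. The gate kept 36.8%, 35.6% and 39.4% of the control barcodes that passed the depth and mitochondrial limits and 39.7%, 42.2% and 43.1% of those labelled IE-HuR-/-. Hbb-bs, 1 of the genes it excludes, was detected in 40.9%, 44.1% and 34.2% of these control barcodes and in 23.0%, 19.5% and 20.5% under IE-HuR-/-. With all of those barcodes as the denominator the ratio was 2.26-fold, without overlap. Of the 302 barcodes with at least 3 rule genes outside the gate, 231 held Ptprc. Among barcodes that failed the gate the share with at least 3 rule genes was 0.88%, 0.888% and 0.881% in the controls and 2.2%, 2.02% and 1.68% under IE-HuR-/-, and the log2 ratio of the share inside to the share outside did not separate the labels (-1.03 ± 0.24 against -1.15 ± 0.126, SD, n = 3, exact permutation p = 0.6).

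**Figure D3:**
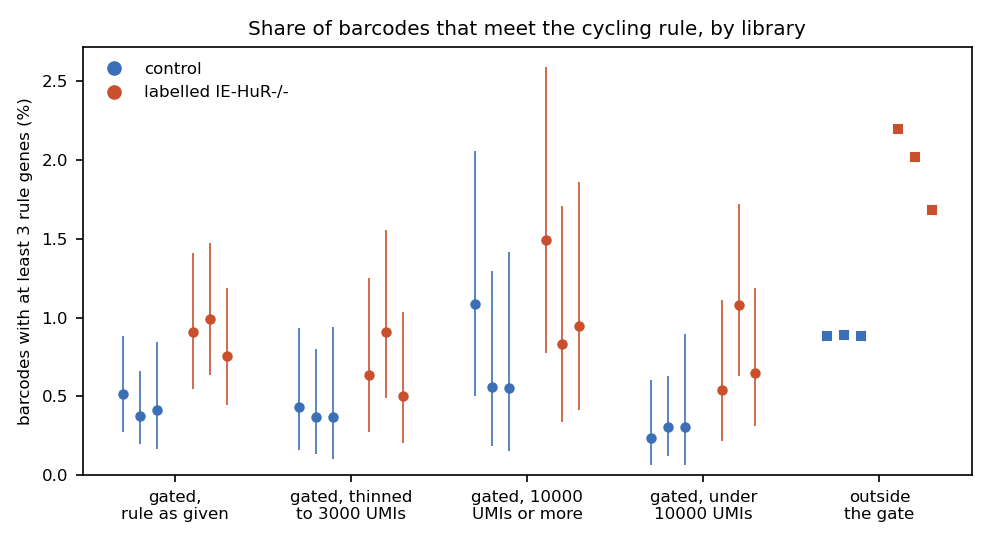
Percentage of barcodes with at least 3 rule genes in each library, for gated barcodes as the rule takes them, thinned to 3000 UMIs, split at 10000 UMIs, and for barcodes outside the gate (squares). Bars are exact 95% binomial intervals. The 3 libraries labelled IE-HuR-/- lie above the 3 controls except among gated barcodes of at least 10000 UMIs, where they overlap.

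Elavl1 RNA did not tell the labels apart in these cells. It stood at 75.6, 92.2 and 94.4 CPM in the controls and at 87.7, 88.6 and 98.4 CPM in the libraries labelled IE-HuR-/-. The log2 fold change was 0.08 ± 0.31 (SE, n = 3, edgeR adjusted p = 0.969). As for single genes in the label comparisons below, these CPM are taken over the UMIs of tested RNAs. They are scaled by TMM, the trimmed mean of M-values, while sums over lists are unscaled CPM. The Elavl1 values rest on 51 and 98 UMIs. The position of the floxed exons relative to the counted ends of the transcripts is not given in the sources used here, so this RNA may not check the deletion, and the libraries are named by their labels throughout.

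Counts summed over the cycling barcodes of each library were compared between the labels by edgeR's quasi-likelihood test. Of 4084 RNAs tested, 6 (0.147%) passed an adjusted p of 0.05, all higher under IE-HuR-/-, 302 (7.39%) had an unadjusted p under 0.05, and 512 (12.5%) had libraries that did not overlap between the labels. Of these 6, 3 encode chains of MHC class II, the molecules that present peptides to CD4+ T cells. The others encode an immunoproteasome subunit, a phosphate transporter and an enterocyte fatty acid-binding protein. With at least 4 rule genes 3 of 10 called RNAs were lower under IE-HuR-/-. With at least 2 rule genes 29 of 52 were lower, and 3 of the 6 were among the 52. That lower threshold adds 140 barcodes with a median of 22840 UMIs. They held 15969 CPM of Fabp2 and 3.91 CPM of Pclaf, against 2370 and 184 CPM in the 93. Values with at least 2 rule genes, here and below, thus describe a mixed set and not the cycling barcodes alone.

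H2-Ab1, the beta chain of I-A, stood at 60.5, 36.9 and 23.6 CPM in the controls and at 551, 508 and 459 CPM under IE-HuR-/-. Its log2 fold change was 3.57 ± 0.32 (SE, edgeR adjusted p = 2.88e-05), and the labels did not overlap. H2-Aa, the alpha chain, was at 18.9, 12.3 and 0 CPM against 432, 366 and 252 CPM (4.87 ± 0.49, edgeR adjusted p = 0.000203). Only 7 UMIs stood behind the control values, which limits the precision of that fold. H2-Eb1, the beta chain of I-E, was at 45.4, 18.4 and 11.8 CPM against 333, 362 and 161 CPM (3.35 ± 0.46, edgeR adjusted p = 0.0079). H2-Ab1 was detected in 10 of 18 control and 25 of 27 IE-HuR-/- cycling barcodes of at least 10000 UMIs, counts over barcodes that share libraries. No barcode gave more than 11.7% of its UMIs under IE-HuR-/-. Detection in deep barcodes does not separate a cell's own RNA from RNA shared by all droplets, which is gauged below. H2-Ab1 and H2-Aa passed in all 19 alternative settings that tested them, while H2-Eb1 passed in 16 of 19. It did not pass without control replicate 2 (3.21, edgeR adjusted p = 0.141), with at most 20% mitochondrial UMIs (3.27, 0.0767) or with sums thinned to the lowest total (3.24, 0.2).

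Of the MHC class II list, 5 genes could be tested, and all 5 had an unadjusted p under 0.05 with a higher value under IE-HuR-/-, where 3.99% of all RNAs did, and 3 of them passed the adjusted test. The median log2 fold change of the 5 was 3.35, against -0.0052 over all RNAs tested. Cd74, the invariant chain that loads class II, was at 287, 148 and 59.0 CPM against 1852, 1306 and 1116 CPM, without overlap, and did not pass (3.08 ± 0.54, edgeR adjusted p = 0.195). Cd74 did pass in 8 of 20 alternative settings, among them DESeq2 (adjusted p = 1.29e-10), at least 2 rule genes (edgeR adjusted p = 0.000694) and the omission of control replicate 1 (0.000637) or control replicate 3 (0.00563), with log2 fold changes from 2.47 to 3.79 over the 20. H2-DMa, a peptide exchange factor, gave 1.69 (edgeR adjusted p = 0.322).

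In the matched barcodes, where 12 of 3586 RNAs passed (0.335%), H2-Ab1 stood at 118, 334 and 136 CPM in the controls and at 1132, 1095 and 1046 CPM under IE-HuR-/- (2.50 ± 0.38, edgeR adjusted p = 0.0154). Cd74 gave 164, 636 and 396 against 2467, 2119 and 2172 CPM (2.51 ± 0.42, edgeR adjusted p = 0.02). RNA shared by all droplets was gauged in T cell barcodes, in unscaled CPM over all UMIs. The scaled CPM of the cycling barcodes run higher than unscaled ones, since they count tested RNAs only. In IE-HuR-/- replicate 1 these made up 451819 of 499616 UMIs. Margins over the gauge are thus somewhat too wide. Those without Epcam were chosen to lack an epithelial RNA and so give a low level, and those with Epcam, 499 to 1000 per library, were added after the data were seen. Whether the latter hold more than shared RNA was not tested. In barcodes without Epcam H2-Ab1 was at 29.5, 42.3 and 21.7 CPM in the controls and at 63.1, 64.3 and 59.5 CPM under IE-HuR-/-. In those with Epcam it was at 63.4, 101 and 73.7 CPM in the controls and at 297, 316 and 354 CPM under IE-HuR-/-. The cycling barcodes of the controls lay below this higher level in all 3 libraries, and those labelled IE-HuR-/- above it in all 3, by less than 2 times. The T cell barcodes with Epcam thus also held more H2-Ab1 under IE-HuR-/-. For Cd74 the T cell barcodes without Epcam held 59.1, 69.7 and 15.5 CPM in the controls and 128, 139 and 144 CPM under IE-HuR-/-, below the cycling barcodes of the same library in all 6. Those with Epcam held 124, 191 and 136 CPM in the controls and 617, 634 and 761 CPM under IE-HuR-/-, which was more than the cycling barcodes of control replicates 2 and 3 and less than those of the other 4 libraries.

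Psmb8, the immunoproteasome subunit, was at 113, 135 and 142 CPM in the controls and at 488, 366 and 295 CPM under IE-HuR-/- (1.57 ± 0.27, edgeR adjusted p = 0.0225). T cell barcodes held 435 to 523 CPM of it without Epcam and 352 to 450 CPM with Epcam in the 6 libraries. The Psmb8 call was lost in 8 of 19 alternative settings, which were the omission of any 1 control or of IE-HuR-/- replicate 1 (edgeR adjusted p from 0.0593 to 0.182), at most 20% mitochondrial UMIs (0.0594), stricter exclusion of other cell types (0.0663), sums thinned to the lowest total (0.0551) and at least 2 rule genes, where the log2 fold change was 0.63 (0.177). In the other 7 of these settings it was between 1.35 and 1.76. H2-D1, an MHC class I gene chosen after its value was seen, did not pass (1.48 ± 0.31, edgeR adjusted p = 0.134). Slc34a2, a sodium-phosphate cotransporter, had 1 UMI over the 3 control libraries and 132 over the 3 labelled IE-HuR-/-, a ratio of CPM of 70.7 with an exact 95% counting interval of 12.5 to 2812. It was at 94.4, 53.9 and 208 CPM in the latter and in 16 of their 61 barcodes, and a single barcode gave 41.7% of these UMIs (edgeR adjusted p = 0.0202). In T cell barcodes without Epcam it was at 17.5 to 36.6 CPM in the controls and 43.1 to 58.0 CPM under IE-HuR-/-. In those with Epcam it was at 60.7, 86.2 and 85.7 CPM in the controls and at 139, 170 and 155 CPM under IE-HuR-/-, a level that the cycling barcodes exceeded in IE-HuR-/- replicate 3 alone. The Slc34a2 call was lost in 5 of 15 alternative settings. Without any 1 of the controls the log2 fold change was 5.48 to 8.08 (edgeR adjusted p from 0.136 to 0.231), with at most 20% mitochondrial UMIs 5.58 (0.0594) and with at least 2 rule genes 0.52 (0.577). The gene was not tested with at least 4 rule genes, stricter exclusion, doublet removal or thinning.

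Fabp2 was at 1085, 1432 and 1416 CPM in the controls and at 4058, 2993 and 2937 CPM under IE-HuR-/- (1.35 ± 0.21, edgeR adjusted p = 0.0079). The labels did not overlap, and all 93 barcodes held it, but single barcodes weighed heavily under both labels. In the controls the largest gave 157 of 287, 89 of 233 and 162 of 240 Fabp2 UMIs, with 3, 7 and 4 rule genes detected. Under IE-HuR-/- the largest gave 899 of 1805, 484 of 777 and 342 of 1074, with 3, 4 and 3 rule genes. Another barcode of IE-HuR-/- replicate 3 with 3 rule genes gave 326. T cell barcodes without Epcam held 1132, 1970 and 749 CPM in the controls and 1709, 1368 and 1419 CPM under IE-HuR-/-, and the control cycling barcodes lay within that control range. T cell barcodes with Epcam held 2966, 5281 and 3544 CPM in the controls and 4989, 7074 and 5103 CPM under IE-HuR-/-, more than the cycling barcodes in all 6 libraries. The part of shared RNA in the Fabp2 difference was not tested. The Fabp2 call was lost in 8 of 20 alternative settings. Leaving out control replicate 1, control replicate 2 or IE-HuR-/- replicate 1 gave log2 fold changes of 1.23, 1.42 and 1.18 with edgeR adjusted p values from 0.0785 to 0.126. The log2 fold change was -0.04 with at least 2 rule genes (edgeR adjusted p = 0.967), 0.93 with at least 4 (0.834), 1.20 with at most 20% mitochondrial UMIs (0.559), 1.38 with stricter exclusion of other cell types (0.924) and 0.62 with each barcode thinned to 1000 UMIs (0.811).

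**Figure D4:**
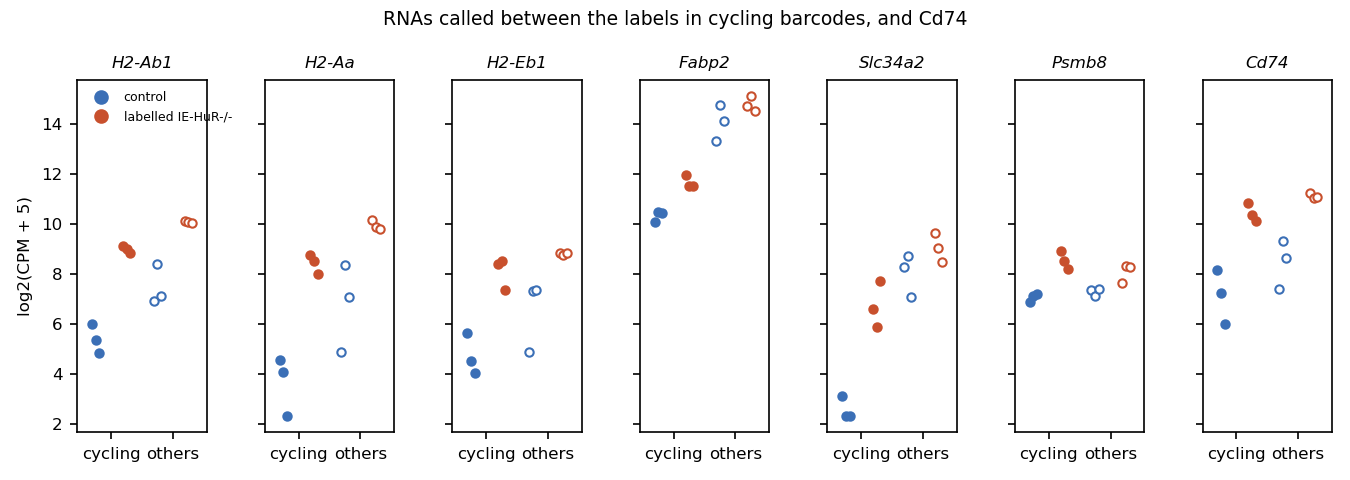
The 6 RNAs called between the labels in cycling barcodes, and Cd74, as log2(CPM + 5), 1 point per library. Filled points are cycling barcodes and open points the depth-matched other barcodes. Among filled points the labels do not overlap in any panel, while among open points only H2-Ab1 and Cd74 of these 7 passed the test.

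Genes of mitosis leaned to lower values under IE-HuR-/- without any passing the test. Of 44 tested in the 3 lists, 40 (90.9%) had a log2 fold change below 0, where 50.5% of all RNAs did, and 8 (18.2%) had an unadjusted p under 0.05 in that direction, where 3.4% of all RNAs did. The median was -0.47 for the spindle list, -0.59 for kinetochores and -0.45 for mitotic kinases. With at least 2 rule genes these medians were -0.055, -0.041 and 0.0023, and with at least 4 they were -0.30, -0.33 and -0.19. Leaving out IE-HuR-/- replicate 2 gave -0.86, -0.81 and -0.77, and leaving out IE-HuR-/- replicate 3 gave -0.26, -0.39 and -0.11. Omitting IE-HuR-/- replicate 1 gave -0.31, -0.39 and -0.14, and the mitotic kinase median was also -0.30 when control replicate 2 was omitted and -0.19 when control replicate 3 was. The spindle median was -0.85 in barcodes of at least 10000 UMIs and -0.91 with each barcode thinned to 1000 UMIs, and the mitotic kinase median -0.84 with sums thinned to the lowest total, -0.72 with at most 20% mitochondrial UMIs and -0.16 with no filter on low counts. Among genes chosen after their values were seen, Hmmr, a spindle assembly factor, had -1.52 (edgeR adjusted p = 0.326) and Cdkn3, a phosphatase of cyclin-dependent kinases, -1.58 (edgeR adjusted p = 0.322). The summed spindle list was at 3374, 4366 and 4630 CPM in the controls and at 2132, 4385 and 2285 CPM under IE-HuR-/-, so that IE-HuR-/- replicate 2 lay among the controls. Per barcode, the median sum of the 3 mitosis lists was 6038, 6368 and 12011 CPM in the controls and 4777, 9522 and 6564 CPM under IE-HuR-/-, and the labels overlapped. The rule genes, on which the cells were chosen, are given as values only, with Ube2c at 265, 381 and 554 CPM against 164, 628 and 183 CPM. Both labels held barcodes just inside the threshold, 11 of 32 in the controls and 14 of 61 under IE-HuR-/- with exactly 3 rule genes. Replication genes were centred near 0, with a median of -0.08 over 17 genes, 10 of them below 0, and Mcm7 was at 0.41 (edgeR adjusted p = 0.847). The sign of this median depended on the setting, with 14 of 20 settings below 0 and 6 above, the main one included. It was 0.40 with at least 2 rule genes and 0.23 with at least 4. Leaving out control replicate 1, 2 or 3 gave 0.17, 0.34 and -0.25, and leaving out IE-HuR-/- replicate 1, 2 or 3 gave 0.21, -0.16 and -0.11.

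Enterocyte genes leaned the other way. Of 24 tested, 21 were higher under IE-HuR-/-, 1 passed the adjusted test (Fabp2), where 0.147% of all RNAs did, and 6 had an unadjusted p under 0.05 in that direction, where 3.99% of all RNAs did. The median log2 fold change was 1.13, and it was -0.23 with at least 2 rule genes. The summed list was at 12335, 14264 and 9697 CPM in the controls and at 49436, 20858 and 54126 CPM under IE-HuR-/-, without overlap, and at 70788 to 129791 CPM in the matched barcodes of the 6 libraries. In T cell barcodes without Epcam it was at 5586 to 13740 CPM in the controls and 7095 to 8056 CPM under IE-HuR-/-. In those with Epcam it was at 20971, 33661 and 26427 CPM in the controls and at 28361, 30768 and 28146 CPM under IE-HuR-/-, more than the cycling barcodes of the 3 controls and of IE-HuR-/- replicate 2 and less than those of IE-HuR-/- replicates 1 and 3. Single barcodes weighed heavily on the sum in libraries of both labels. The largest barcode gave 69.1%, 56.3% and 42.5% of the list's UMIs in the controls and 23.3%, 57.7% and 50.3% under IE-HuR-/-. Without the largest barcode of each library the sums were 4400, 8244 and 5911 against 40819, 9681 and 33783 CPM, still without overlap. The largest barcode then left in held 359, 342 and 441 UMIs of the list in the controls and 5073, 811 and 6261 under IE-HuR-/-, so single barcodes still weighed on the sums. The median share per barcode was 0.464%, 1.52% and 0.787% in the controls and 3.38%, 1.14% and 1.33% under IE-HuR-/-, and on this measure the labels overlapped. Other lists also leaned to higher values under IE-HuR-/-. Of the goblet genes, 5 of 5 tested lay above 0 (median 3.83), with sums of 316, 859 and 183 CPM in the controls. Their sums under IE-HuR-/- were 17806, 942 and 305 CPM, and the labels overlapped. Immediate-early and heat shock genes gave 6 of 6 above 0 (median 0.68). Of all RNAs, 2023 of 4084 lay above 0, and no gene of either list had an unadjusted edgeR p under 0.05.

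**Figure D5:**
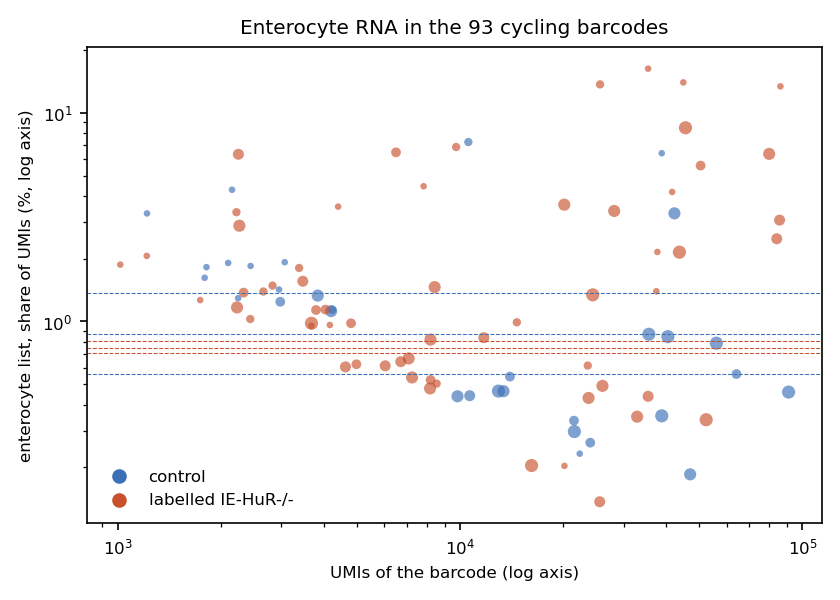
Share of UMIs from the 24 enterocyte genes in each of the 93 cycling barcodes against its depth, both on log axes, with point area rising with the number of rule genes detected. Dashed lines give the same share in the T cell barcodes without Epcam of each library. The highest barcode reaches 16.2%, and no control barcode exceeds 7.23%.

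Of the stem cell genes, 8 of 10 tested lay below 0, where 50.5% of all RNAs did, and none passed. Of the 10, 2 had an unadjusted p under 0.05 with a lower value, where 3.4% of all RNAs did. Their median was -0.31, below 0 in 19 of 20 alternative settings and above it in 1. It was 0.17 without control replicate 1, -0.073 without IE-HuR-/- replicate 1, -0.64 without IE-HuR-/- replicate 2 and -0.78 without control replicate 3. Olfm4 had -0.32 ± 1.56 (SE, edgeR adjusted p = 0.979), an error wide enough to hide a large change in either direction. Clca3b had -1.46 ± 0.39 and did not overlap between the labels, but did not pass (edgeR adjusted p = 0.326). Smoc2 was at 0.02 (edgeR adjusted p = 0.995), while Lgr5, Ascl2 and Rgmb had too few UMIs to be tested. Lgr5 was detected in 7 of 32 control and 4 of 61 IE-HuR-/- cycling barcodes, a count over barcodes that share libraries. Of the CDK inhibitors, also chosen after their values were seen, Cdkn1a, the p53 target p21, had 0.99 (edgeR adjusted p = 0.646) and Cdkn1b, p27, -1.11 (edgeR adjusted p = 0.482).

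Nuclear genes for mitochondrial proteins gave 15 of 18 above 0, where 2023 of all 4084 RNAs were, with a median of 0.21, and 2 of 18 had an unadjusted p under 0.05 with a higher value, where 3.99% of all RNAs did. None passed. Cycs, cytochrome c, was the largest at 0.99 ± 0.24 (edgeR adjusted p = 0.193). Phb and Phb2, the prohibitins, had 0.36 ± 0.43 and 0.20 ± 0.24, Hspd1, a mitochondrial chaperonin, 0.04 ± 0.25, Vdac1, the outer membrane channel, -0.01 ± 0.24, and Cox4i1, Sdha and Opa1 had 0.06, 0.34 and 0.25, with edgeR adjusted p values from 0.768 to 0.995 over these 7. The 13 mitochondrially encoded genes all lay below 0 with a median of -0.43, 4 of them had an unadjusted p under 0.05, where 3.4% of all RNAs did in that direction, and none passed. The median was below 0 in 19 of 20 alternative settings. With at most 20% mitochondrial UMIs, a limit that acts on these same genes and removed 2 control barcodes, it was 0.38. Their sum was at 101152, 75873 and 113928 CPM in the controls and at 71809, 65384 and 85300 CPM under IE-HuR-/-, so the labels overlapped.

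Whether a change between the labels differed between cycling and matched barcodes was tested as an interaction within libraries. None of 5095 RNAs passed (0%), against 169 with an unadjusted p under 0.05 (3.32%) and 6 by DESeq2. H2-Ab1 had an interaction of 0.99 ± 0.56 (SE, edgeR adjusted p = 1) and Fabp2 of 0.63 ± 0.58 (edgeR adjusted p = 1). For Slc34a2 the interaction was 4.77 ± 1.06 (edgeR adjusted p = 0.566).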

How the data were processed

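Droplet libraries of dissociated small intestinal mucosa, 3 per label, were deposited by the authors as unnormalised UMI counts per gene and barcode. The matrix headers name Cell Ranger 6.1.2, and the submitters' processing notes name Cell Ranger, Seurat and mm10. The labels name a 5′ kit and the methods a 3′ kit, and no position along transcripts was used. The members and gene lists were chosen with earlier results of these data known. Counts of cycling barcodes were summed per library and tested with edgeR 4.0.16 (TMM, filterByExpr, robust quasi-likelihood, Benjamini-Hochberg) in R 4.3.3, with DESeq2 1.42.0 as an alternative. The interaction used library, class and class by label. Shares were compared by exact permutation. Named were Elavl1, rule genes, list genes that passed or had the highest CPM, stem cell and mitochondrial genes the study names, called RNAs, and the highest and lowest profile ratios, with exceptions stated. The scripts were tested on simulated data with 200 changed genes, where most changes of 1 on the log2 scale were missed. An RNA that did not pass may therefore still differ. Scrublet in scanpy 1.11.5 called 2 doublets of all barcodes, too few to be usable, so the 8% highest scores were left out as an alternative. Libraries shared 435 barcodes over 15 pairs, and no cycling barcode was cycling in another library. Intervals cover counting error only.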

Additional observations from a re-analysis of the deposited data

Results flagged for a closer look

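Barcodes outside the epithelial gate lie outside the comparisons of cycling epithelial barcodes between the labels, although T cell barcodes among them served as a gauge of shared RNA. The share with at least 3 rule genes averaged 1.97% ± 0.263 under IE-HuR-/- and 0.883% ± 0.00427 in the controls (SD, n = 3), with no overlap and an exact permutation p = 0.1, the smallest that 3 against 3 libraries can give. Of the 302 such barcodes, 231 held Ptprc, 187 Cd3e and 125 Hbb-bs, and 208 held Epcam together with an excluded gene. In T cell barcodes without Epcam the share was 2.35%, 3.24% and 1.95% in the controls and 2.86%, 4.06% and 2.9% under IE-HuR-/-, where the labels overlapped (exact permutation p = 0.3). The part of these barcodes in the share of cycling epithelial barcodes was not tested.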

How the results depend on the processing

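The share of cycling barcodes kept its direction under all 16 alternatives for the gated share and all 10 for the thinned share, with log2 ratios from 0.57 to 1.42 and from 0.52 to 1.23. The count of 6 changed RNAs became 52 with at least 2 rule genes, 10 with at least 4, 2 with at most 20% mitochondrial UMIs, 3 with stricter exclusion of other cell types, 1 with each barcode thinned to 1000 UMIs (an alternative added after seeing the data, which left 220 RNAs to test), 15 by DESeq2, 107 with no filter on low counts, and 2 to 12 leaving out 1 library, lowest without control replicate 2 and highest without IE-HuR-/- replicate 2. A replicate block gave 19, but same-numbered libraries did not deviate together (correlations -0.197, -0.0265 and -0.225), so the numbers give no pairing. For the interaction the count of 0 became 13 with no filter, 9 with all other barcodes as comparators, 6 by DESeq2 and 0 to 3 leaving out 1 library, and the profile's lower genes numbered 495 with at least 4 rule genes. The causes were not tested.

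Log2 fold changes that crossed 0 were those of Fabp2 (-0.041), Olfm4 (0.046) and Vdac1 (0.30) with at least 2 rule genes, and of Vdac1 with at least 4 (0.052), with stricter exclusion (0.34), without the 8% highest doublet scores (0.029), with no filter (0.073) and with thinned sums (0.16). With at most 20% mitochondrial UMIs they were those of Elavl1 (-0.086), Smoc2 (-0.16) and Hspd1 (-0.12), with no TMM scaling Smoc2 (-0.041) and Hspd1 (-0.018), and with the replicate block Olfm4 (0.53) and Smoc2 (-0.0088). Hspd1 gave -0.081 and Cox4i1 -0.19 with barcodes thinned to 1000 UMIs, and Hspd1 -0.058 in barcodes of at least 10000 UMIs. Leaving out 1 library gave -0.022 to 0.16 for Elavl1, -0.87 to 0.42 for Olfm4, -0.16 to 0.29 for Smoc2, -0.0079 to 0.97 for Phb, -0.12 to 0.25 for Hspd1, -0.16 to 0.13 for Vdac1 and -0.00085 to 0.16 for Cox4i1. Of these genes, Fabp2 alone had passed the test. With at least 2 rule genes the medians of the enterocyte, spindle, kinetochore and mitotic kinase lists were -0.23, -0.055, -0.041 and 0.0023.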
